A study of Homo sapiens with 4 samples.

Results

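The 10 genes described here encode parts of the nuclear pore and the transport receptors that pass through it: TPR, NUP153, NUP50, NUP98, RANBP2, KPNB1, TNPO1, TNPO2, TNPO3 and XPO1. They are 10 of the 17157 genes with a read over an annotated splice junction, and all 10 were among the 10827 genes with enough reads to be tested. The list was chosen by reads at unannotated acceptors (3′ splice sites) of TPR and TNPO3, which were higher in SF3B1 K700E cells, and the other 8 were joined to them as genes of the same machinery. Values of those sites, and of TPR and TNPO3 in this contrast generally, are therefore given as a description with no test, and tests are given for the other 8 genes only.

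The libraries hold RNA bound to chromatin in K562, a human erythroleukemia line. Of the 4 libraries, 2 carry the genotype SF3B1 K700E and 2 are wild type (WT). A treatment text shared by all 4 gives doxycycline at 1 µg/ml to switch on the modified allele, with collection on day 4. It is not stated whether the WT cells carried an inducible allele, whether the line is 1 clone, or whether replicates are separate cultures, so a p-value here reflects the variation among these libraries alone and may be technical.

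Nuclear pores are the channels through the nuclear envelope. A basket of filaments on the nuclear side (TPR, NUP153 and NUP50), a mesh of phenylalanine-glycine repeats in the channel (NUP98) and filaments on the cytoplasmic side (RANBP2) act together with soluble receptors. Importins such as KPNB1 and the transportins carry proteins inward, exportins such as XPO1 carry them outward, and the GTPase RAN sets the direction. SF3B1 is a subunit of the U2 snRNP, which recognises the branch point ahead of an acceptor, and K700E is its recurrent substitution in myeloid neoplasms.

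The SF3B1 K700E libraries held 4304213 and 5322414 uniquely mapped junction reads, and the WT libraries 3582592 and 3687513. The labels call the cells epithelial. Of 10 erythroid markers 8 had reads in all 4 libraries, GATA1 and TFRC among them, and 4 of 6 epithelial markers did (EPCAM, KRT8, KRT18 and KRT19), while CDH1 had none. Of 5 myeloid markers MPO, ELANE and CD14 were at 0 in every library, CSF1R had 2 reads in each SF3B1 K700E library and 0 in WT, and SPI1 had 20.2 and 19.1 CPM (junction reads scaled to library size) in SF3B1 K700E against 31.8 and 20.4 CPM in WT. Of 5 lymphoid markers 2 were at 0 in every library, and PTPRC, the leukocyte surface phosphatase CD45, had 1767 and 1530 CPM in SF3B1 K700E against 899 and 1200 CPM in WT. The 5 megakaryocyte markers, almost all ITGA2B, summed to 145 and 612 CPM in SF3B1 K700E and 415 and 150 CPM in WT. The part of these markers in any result was not tested. Summed erythroid markers ranged over 1275 to 1957 CPM in SF3B1 K700E and 1497 to 1873 CPM in WT. In bulk RNA, fewer cells of a type and less RNA per cell cannot be told apart.

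Over the 10 genes, the files listed 306 annotated and 347 unannotated junctions, 10 of them with multiply mapped reads only. The exon ends on either side of the introns where TPR and TNPO3 gain an acceptor are shown because the added bases shift the reading frame of the exon that follows. They are GENCODE transcript sequences on GRCh38, minus strand, written 5′ to 3′, and the capitals mark the stop codon met in the shifted frame. The exon pieces are chr1:186356286-186356309 and chr1:186355742-186355768 in TPR, and chr7:129014979-129015002 and chr7:129005141-129005159 in TNPO3.
TPR, end of exon 15: caggagttgccattccattacatg
TPR, start of exon 16: cttcaagctTAGatgatgtttctcttg
TNPO3, end of exon 4: tctagtacagtagtatctctattg
TNPO3, start of exon 5: aTGAcctgtgtagaaaaag

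TPR (ENSG00000047410.13, chr1:186311652-186375693, minus strand) encodes the long coiled-coil filament protein of the basket. In its intron 15 an unannotated acceptor lay 17 nt upstream of the annotated one, so that the intron ran over chr1:186355786-186356285. It took 24 of 103 reads (23.3%, 95% Wilson interval 16.2 to 32.3%) in SF3B1 K700E replicate 1 and 10 of 65 (15.4%, 8.58 to 26.1%) in replicate 2, counted over this acceptor and the annotated one. In WT it took 0 of 47 and 0 of 72 reads, which allow shares of up to 6.38% and 4.17%. Both SF3B1 K700E libraries had reads there and neither WT library did.

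The 17 nt are not a multiple of 3. They would bring a TAG into frame at bases 10 to 12 of exon 16, which is 134 nt long, with 35 exons still to follow. The exon begins at codon 630 of 2363, so that a reading frame taking this site would end shortly after that codon, or within the added bases if these intronic bases, whose sequence is not used here, hold a stop. The neighbouring introns had reads in both groups: intron 14 held 98 and 66 reads in SF3B1 K700E against 36 and 68 in WT, and intron 16 held 125 and 124 against 75 and 117.

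TNPO3 (ENSG00000064419.13, chr7:128954180-129055173, minus strand) encodes the importin of the SR splicing factors. Its unannotated acceptor in intron 4 (intron chr7:129005177-129014978) also lay 17 nt upstream of the annotated one. It took 18 of 76 reads (23.7%, 15.5 to 34.4%) and 14 of 70 reads (20%, 12.3 to 30.8%) in the SF3B1 K700E libraries. In the WT libraries it took 0 of 49 and 0 of 53 reads, which allow up to 6.12% and 5.66%. The groups did not overlap in either gene, and the 2 SF3B1 K700E libraries gave closer shares in TNPO3 than in TPR. In TNPO3 the shifted frame would meet TGA at bases 2 to 4 of exon 5, a 144-nt exon at codon 185 of 923 with 18 exons after it. These intervals and limits cover counting error only and leave out variation between libraries. They take each read as a separate molecule, although the reads carry no molecular identifiers and copied reads may be counted.

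**Figure D1:**
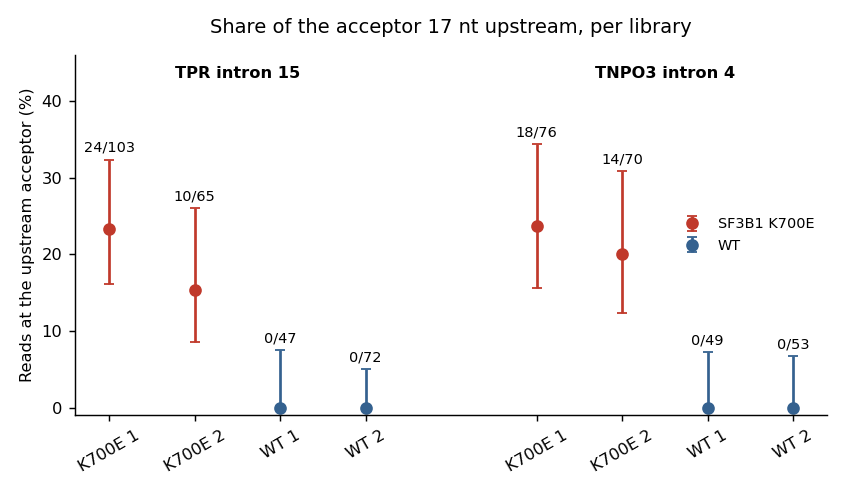
Share of reads (%, y axis) at the acceptor 17 nt upstream, out of that acceptor and the annotated one, in each of 4 libraries (x axis) for TPR intron 15 and TNPO3 intron 4. Points are libraries, bars are 95% Wilson intervals and the fractions are reads, with SF3B1 K700E shares between 15.4 and 23.7% and WT at 0.

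TPR had further unannotated acceptors in the window 10 to 30 nt upstream of an annotated one. Its 7 sites there held 41 and 29 reads in SF3B1 K700E and 5 and 6 in WT. Without the site in intron 15 the other 6 held 17 and 19 reads in SF3B1 K700E against 5 and 6 in WT, or 0.187% and 0.205% of the gene's junction reads against 0.072% and 0.0691%. The groups still did not overlap. TPR was chosen for upstream acceptors in this contrast, so these 6 sites may have entered that choice and are no separate evidence. Both SF3B1 K700E shares of window reads lay above both WT shares in 6.27% of 9139 genes, a share that counts genes without window reads and is not matched for read number. The 6 sites were also small, and the 3 given here were picked after their values were seen. The site 20 nt upstream in intron 10 held 7 and 9 reads against 3 and 1 (3.14% and 3.96% against 2.22% and 0.485% of the pair). The site 15 nt upstream in intron 38 held 5 and 5 reads against 0 and 1. The site 15 nt upstream in intron 45 held 0 and 3 against 2 and 2, so the 6 did not all lean one way.

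A TPR acceptor inside an exon, named after its values were seen, lies 16 nt into exon 38 (chr1:186332299-186332343 is the start of that exon, on the minus strand), and the AG that would end the longer intron is in capitals.
TPR, start of exon 38: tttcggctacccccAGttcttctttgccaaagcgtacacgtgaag
It held 6 and 13 reads in SF3B1 K700E, 6.19% and 10.8% of the pair, and 1 and 4 reads in WT, 1.18% and 3.74%. Both SF3B1 K700E shares were above both WT shares. Of 14 TPR junctions with enough reads to be compared with others from the same donor, 5 lay above in both libraries and 6 below. Over all 23366 such junctions, 18.8% lay above and 18.8% below. Shares from the same donor trade off against each other, so a junction above goes with others below. TPR was also chosen from this contrast, so these counts are a description and no separate evidence. TNPO3 had no other site in the upstream window, and 3 sites 31 to 100 nt upstream held 6 and 0 reads in SF3B1 K700E against 1 and 0 in WT.

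In the other 8 genes together, there were 13 sites 10 to 30 nt upstream of an annotated acceptor, 1 of them in RANBP2 with multiply mapped reads only, and NUP50 had none. The 13 held 9 and 14 reads in SF3B1 K700E and 6 and 7 in WT, or 0.0639% and 0.0958% of junction reads in SF3B1 K700E against 0.0672% and 0.0623% in WT. These shares overlap. In NUP153, KPNB1 and XPO1 both SF3B1 K700E shares were above both WT shares, on totals of 3, 4 and 4 reads in SF3B1 K700E against 0, 1 and 1 in WT. That arrangement held in 6.27% of the 9139 genes with at least 100 junction reads, and the opposite one in 0.613%. Genes without reads in the window are among the 9139 and cannot be apart. The 6.27% is therefore not matched to genes with as many junction reads as these 3. The most read was 17 nt upstream in intron 12 of TNPO1, with 2 and 3 reads in SF3B1 K700E against 1 and 0 in WT. A RANBP2 site 24 nt upstream in intron 23 had 4 reads, all in WT replicate 1.

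**Figure D2:**
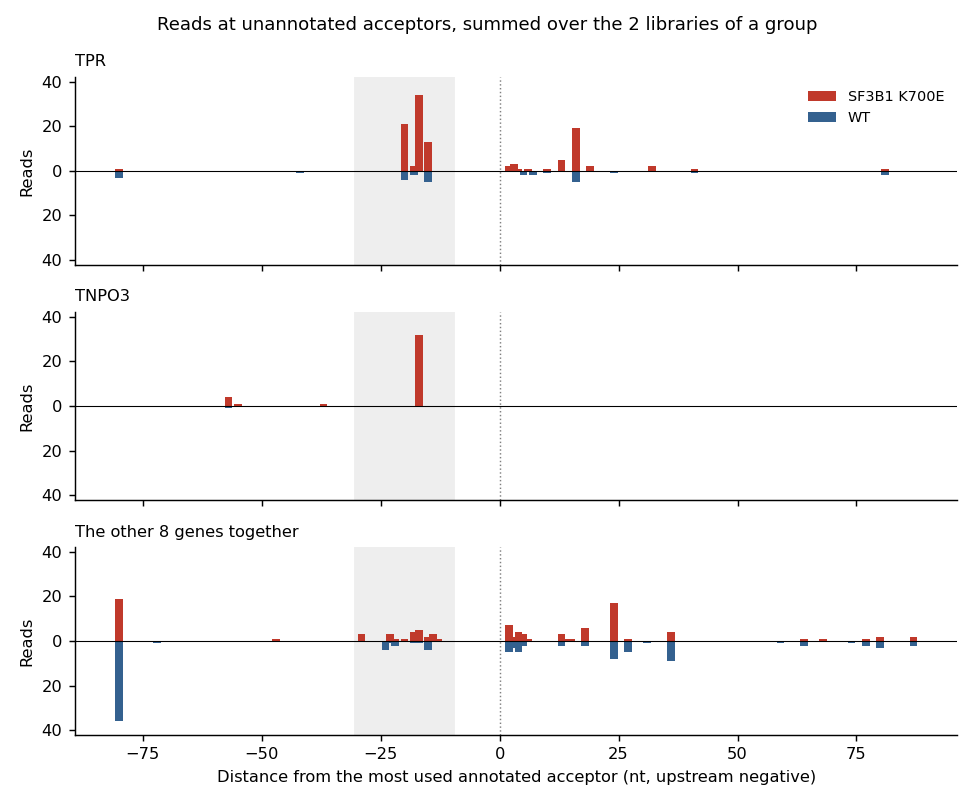
Reads at unannotated acceptors (y axis, SF3B1 K700E upward and WT downward, each summed over 2 libraries) by distance in nt from the most used annotated acceptor of the same donor (x axis, upstream negative), for TPR, TNPO3 and the other 8 genes. The grey band marks 10 to 30 nt upstream, where TPR held 70 against 11 reads, TNPO3 32 against 0 and the other 8 genes 23 against 13.

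Other acceptors of the 8 genes lay outside that window. In NUP98, whose repeats fill the channel, an unannotated acceptor 80 nt upstream in intron 19 took 9 of 51 and 10 of 49 reads in SF3B1 K700E (17.6% and 20.4%) and 14 of 47 and 22 of 66 in WT (29.8% and 33.3%). Both SF3B1 K700E libraries were below both WT libraries, and the log2 change of -0.74 did not pass (edgeR adjusted p 1.00). NUP153, the basket protein that anchors TPR, had acceptors 24 nt into exon 11 and 36 nt into exon 3, named after their values were seen. Both remove a multiple of 3 nt, and the AG of each is in capitals below (chr6:17661735-17661779 and chr6:17675726-17675770, minus strand).
NUP153, start of exon 11: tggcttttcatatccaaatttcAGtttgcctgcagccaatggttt
NUP153, start of exon 3: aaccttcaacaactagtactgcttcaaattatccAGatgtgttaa
The site in exon 11 held 5 and 12 reads in SF3B1 K700E and 5 and 3 in WT, with overlapping shares of 11.6% and 19.7% against 23.8% and 9.09%. The site in exon 3 held 2 and 2 reads against 5 and 4, with a log2 change of -1.58 that did not pass (edgeR adjusted p 1.00).

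TNPO2, the close paralog of TNPO1, has an annotated pair of acceptors 30 nt apart at exon 22 (chr19:12702133-12702177, minus strand). The pair is shown because its spacing falls in the same window. The AG before the more used, downstream acceptor is in capitals.
TNPO2, start of exon 22: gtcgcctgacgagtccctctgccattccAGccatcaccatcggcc
The upstream acceptor took 8 and 9 reads in SF3B1 K700E (12.1% and 11.4%) and 3 and 4 in WT (4.84% and 6.78%). Both SF3B1 K700E shares were higher, with a log2 change of 1.00 that did not pass (edgeR adjusted p 1.00). The added 30 nt keep the frame. An acceptor 341 nt upstream in intron 15 of TNPO2, which belongs to a transcript classed in GENCODE under nonsense-mediated decay and was named after its values were seen, had the opposite sign, with 3 and 4 reads in SF3B1 K700E against 7 and 7 in WT and a log2 change of -1.53 (edgeR adjusted p 1.00).

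Across the 8 genes, 47 junctions in 7 genes could be tested for acceptor use, which compares a junction with the others that share its donor. Of these 12 had both SF3B1 K700E shares above both WT shares and 11 had both below. Over all 23366 junctions tested, 18.8% were above and 18.8% below in this way. None of the 47 passed an edgeR adjusted p of 0.05, where 0.133% of all junctions passed as higher and 0.00428% as lower, and 0 had an unadjusted p under 0.05 (2.46% of all junctions as higher and 0.715% as lower). The median log2 change of the 47 was -0.01, against 0.00 over all junctions tested. Junctions of a shared donor are measured against each other, so a gain at some goes with a loss at others. A median near 0 and similar counts above and below therefore follow from the measure and tell nothing about direction. With limma voom, too, 0 passed.

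For donor use, which compares junctions that share an acceptor, 43 junctions in all 8 genes were tested, with 10 above and 8 below in both libraries. The background was 18.2% above and 18.4% below among 22976 junctions. Gains and losses among junctions of a shared acceptor offset each other here too. None of the 43 passed with edgeR, against 0.00435% of all junctions in each direction, and 1, a higher one, had an unadjusted p under 0.05 (1.55% of all junctions as higher and 0.622% as lower). Limma voom also gave 0.

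That junction lies in XPO1, the exportin of proteins with leucine-rich export signals, and was singled out after its values were seen. An unannotated junction (chr2:61525334-61526419) joined exon 4 to a 64-nt exon inside intron 4 that belongs to transcript XPO1-206, a target of nonsense-mediated decay in the annotation. It held 17 and 20 reads in SF3B1 K700E and 8 and 10 in WT, which were 36.2% and 28.2% of the reads into that exon against 10.1% and 13.5%. The annotated way in, from a longer form of exon 4, held 30 and 51 reads against 71 and 64. Both SF3B1 K700E shares were above both WT shares, with a log2 change of 1.42, an unadjusted p of 0.0121 and an edgeR adjusted p of 1.00. The way out of the exon, an annotated junction that a further transcript starting there also uses, held 103 and 133 reads in SF3B1 K700E and 98 and 121 in WT.

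Exon skipping in XPO1 and NUP98 was chosen for mention in the same way, from the tested junctions with an unadjusted edgeR p under 0.1. XPO1 reads that skip exons 6 and 7, as the annotated decay target XPO1-208 does, numbered 13 and 6 in SF3B1 K700E and 4 and 2 in WT. They were 10.9% and 3.75% of the reads from the same donor against 3.57% and 1.63%. Of the reads into the same acceptor they were 18.6% and 10.3% against 9.52% and 2.63%, and the nearest libraries were close on both sides. NUP98 reads that skip exon 24 numbered 10 and 13 in SF3B1 K700E and 6 and 5 in WT, which were 21.7% and 23.6% of the reads into the next exon against 11.3% and 9.09%. The groups did not overlap in either gene, and neither passed (edgeR adjusted p 1.00 for both). An unannotated skip of XPO1 exon 19 held 2 and 7 reads against 0 and 1 (edgeR adjusted p 1.00).

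**Figure D3:**
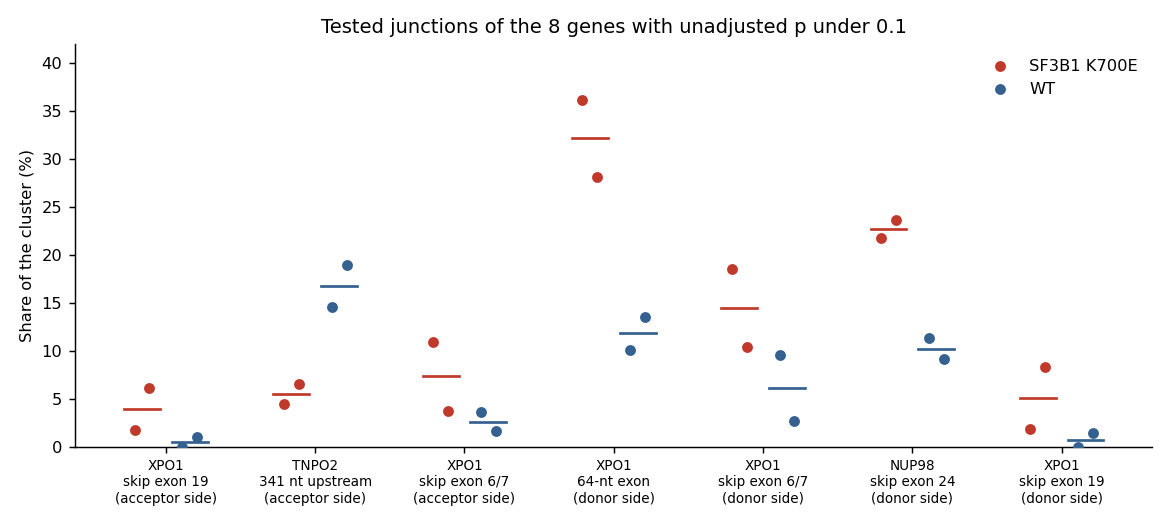
Share (%, y axis) of the reads that share an acceptor (donor side) or a donor (acceptor side) taken by the 7 tested comparisons of the 8 genes with an unadjusted p under 0.1 (x axis). Points are libraries and lines group means, with SF3B1 K700E above WT in all but the TNPO2 junction, and none passed adjustment.

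Unannotated junctions, all kinds summed, made up more of the spliced reads of TPR and TNPO3 in SF3B1 K700E. In TPR they were 1.26% and 1.06% in SF3B1 K700E and 0.576% and 0.541% in WT, and without the site in intron 15 the SF3B1 K700E shares were 1.00% and 0.948%. In TNPO3 they were 5.94% and 3.75% in SF3B1 K700E and 1.67% and 1.74% in WT, and without the site in intron 4 the SF3B1 K700E shares were 4.53% and 2.81%. The groups stayed apart without those sites in both genes, which is no separate evidence, since both genes were chosen from this contrast. Over all genes with at least 100 junction reads, 25.2% had both SF3B1 K700E shares above both WT shares and 9.66% had both below.

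By kind, the unannotated reads of TNPO3 were apart between groups for acceptors and for new pairings of known splice sites. Unannotated acceptors held 37 and 29 reads in SF3B1 K700E, 2.89% and 1.94% of its junction reads, and 4 and 6 in WT, 0.418% and 0.551%. The SF3B1 K700E reads include 18 and 14 at the site in intron 4, for which the gene was chosen. New pairings held 24 and 14 reads in SF3B1 K700E (1.88% and 0.938%) and 3 and 6 in WT (0.314% and 0.551%). Unannotated donors overlapped, at 1.17% and 0.871% in SF3B1 K700E against 0.941% and 0.643% in WT. Apart from intron 4, and named after their values were seen, an acceptor 1500 nt upstream in intron 14 held 8 and 3 reads in SF3B1 K700E against 1 and 2 in WT, and a skip of exons 15 and 16 held 5 and 1 reads against 0 and 0. In TPR, unannotated acceptors took 0.803% and 0.711% in SF3B1 K700E against 0.288% and 0.299% in WT, and new pairings 0.374% and 0.302% against 0.187% and 0.184%. The TPR acceptor reads in SF3B1 K700E likewise include 24 and 10 at the site in intron 15. TPR donors overlapped, at 0.088% and 0.0431% against 0.101% and 0.0576%. New pairings were also higher in both SF3B1 K700E libraries in TNPO1, TNPO2 and XPO1, and lower in both in NUP153. In XPO1 they were 1.24% and 1.58% in SF3B1 K700E against 0.842% and 0.925% in WT, and in NUP153 0.901% and 0.543% against 1.26% and 1.09%. Donors were higher in NUP98 and RANBP2 and lower in NUP153, and acceptors were lower in RANBP2. Some of these rest on few reads: new pairings held 7 and 12 reads in SF3B1 K700E against 0 and 0 in WT in TNPO1, and 4 and 6 against 0 and 3 in TNPO2. Shares by kind over all genes were not computed, so these separations have no background and are a description only.

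Among the other 8 genes none had a higher unannotated share in both SF3B1 K700E libraries. NUP153 was lower in both, at 3.38% and 3.6% in SF3B1 K700E against 4.64% and 3.94% in WT. KPNB1, which encodes importin β, was also lower in both, with a small margin, at 1.00% and 0.962% against 1.04% and 1.01%. The remaining 6 overlapped between groups. Together the 8 genes had 1.89% and 2.09% in SF3B1 K700E against 1.84% and 2.08% in WT, and all 10 had 1.87% and 1.81% against 1.31% and 1.43%. The difference of 0.471 percentage points over all 10 was 0.227 over junctions with at least 10 reads.

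**Figure D4:**
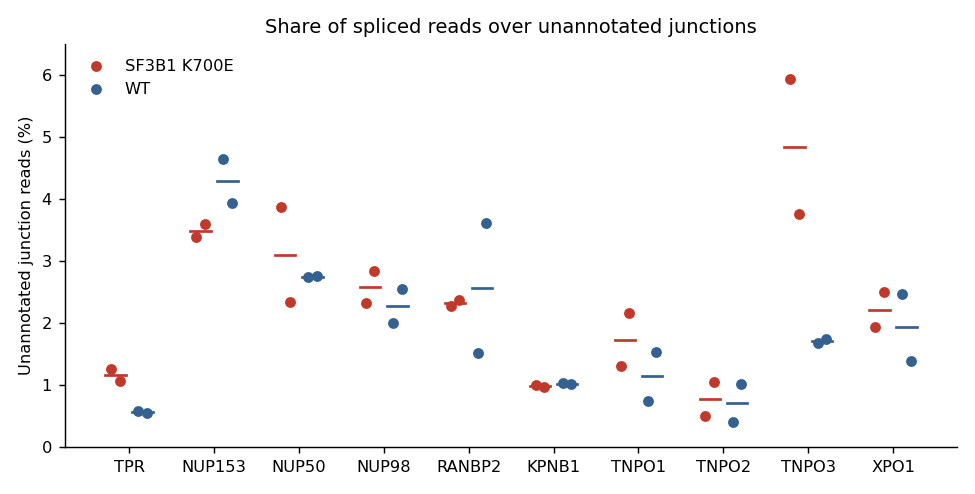
Unannotated junction reads as a share of all junction reads of a gene (%, y axis) for the 10 genes (x axis) in 2 SF3B1 K700E and 2 WT libraries (points, with group means as lines). TNPO3 reached 5.94% and 3.75% in SF3B1 K700E against 1.67% and 1.74% in WT, and groups of the other genes except TPR, NUP153 and KPNB1 overlapped.

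Total spliced reads of the 10 genes had log2 differences of -0.31 (NUP98) to 0.46 (TNPO1) between the genotypes. Single libraries moved these: without each of the 4 in turn TNPO1 was 0.12 (without SF3B1 K700E replicate 1) to 0.75 (without SF3B1 K700E replicate 2) and NUP98 -0.53 (without SF3B1 K700E replicate 1) to -0.08 (without WT replicate 2). TPR had 2265 and 1911 CPM in SF3B1 K700E and 2111 and 2598 CPM in WT, a log2 difference of -0.17 with overlapping groups. TNPO3 had 304 and 299 CPM in SF3B1 K700E and 287 and 322 CPM in WT, a log2 difference of -0.02, also overlapping. None of the 8 tested genes passed (edgeR adjusted p 0.632 to 0.997), where 0.933% of the 10827 genes passed in either direction. None of the 8 had an unadjusted p under 0.05, as 3.67% of all genes did as higher and 6.44% as lower. DESeq2 also called 0 of the 8.

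In the basket, NUP153 had 541 and 406 CPM in SF3B1 K700E and 302 and 476 CPM in WT (log2 change 0.28, standard error (SE) 0.27, edgeR adjusted p 0.839). NUP50, which helps release importin α cargo, had 43.9 and 52.2 CPM in SF3B1 K700E and 43.4 and 31.9 CPM in WT (log2 change 0.35, SE 0.28, adjusted p 0.777). NUP153 overlapped between groups, and NUP50 was higher in both SF3B1 K700E libraries, by a narrow margin over WT replicate 1. In the channel and on the cytoplasmic side, NUP98 had 499 and 369 CPM in SF3B1 K700E and 465 and 609 CPM in WT (log2 change -0.31, SE 0.24, adjusted p 0.778). RANBP2, a SUMO ligase that binds RANGAP1, had 337 and 274 CPM in SF3B1 K700E and 198 and 280 CPM in WT (log2 change 0.35, SE 0.25, adjusted p 0.735). Both overlapped, and RANBP2 is uncertain because 15.3% of its reads mapped to several places, as near-copies of the gene exist.

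Among the import receptors KPNB1 had 675 and 771 CPM in SF3B1 K700E and 583 and 650 CPM in WT (log2 change 0.23, SE 0.21, adjusted p 0.834). TNPO1, the receptor for hnRNP proteins, had 364 and 236 CPM in SF3B1 K700E and 205 and 231 CPM in WT (log2 change 0.46, SE 0.26, adjusted p 0.632). Both were higher in both SF3B1 K700E libraries. With NUP50 that made 3 of the 8, where 19.4% of all genes were higher in this way and 20.1% lower, and 0 of the 8 were lower. TNPO2 had 350 and 355 CPM in SF3B1 K700E and 385 and 323 CPM in WT (log2 change -0.01, SE 0.22, adjusted p 0.997). The exportin XPO1 had 676 and 513 CPM in SF3B1 K700E and 495 and 705 CPM in WT (log2 change -0.01, SE 0.25, adjusted p 0.995), and both overlapped. The median log2 change of the 8 was 0.26, against 0.00 over all genes tested.

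Because genes with more introns collect more junction reads, levels between genes were compared as the median CPM per intron. TPR was highest at 48.3 and 38.3 in SF3B1 K700E and 40.3 and 54.7 in WT, and KPNB1 next at 32.8 and 40.3 against 26.0 and 32.5. XPO1 (25.0 and 17.7 against 17.1 and 24.4) and NUP153 (25.2 and 18.9 against 11.6 and 19.5) followed and overlapped each other, and NUP153 in WT replicate 1 fell within the range of the next genes. NUP98, RANBP2, TNPO1, TNPO2 and TNPO3 lay between 5.81 and 14.6 and overlapped, and NUP50 was lowest at 5.30 and 6.86 against 5.50 and 3.61. TPR overlapped KPNB1 in SF3B1 K700E. All introns of the main transcript had reads in all 4 libraries in 9 of the genes, and 24 of 25 did in XPO1.

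**Figure D5:**
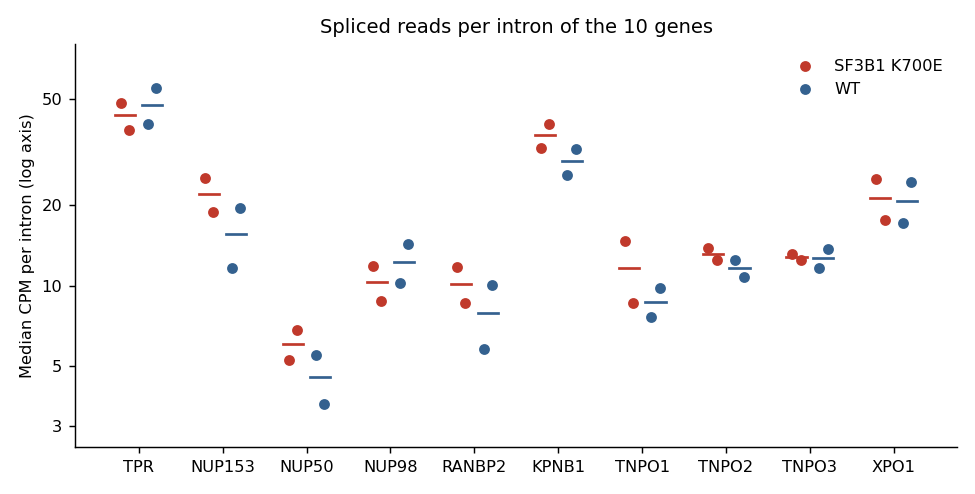
Median CPM per intron (log y axis) of the 10 genes (x axis) in 2 SF3B1 K700E and 2 WT libraries (points, with group means as lines). TPR spans 38.3 to 54.7 and NUP50 3.61 to 6.86, and the genotypes differ less within a gene than TPR and NUP50 differ.

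The position of reads along the genes was given as the log2 ratio of reads in the last of 3 equal parts of a gene over those in its first part. This ratio depends on how many introns each part holds and can be compared only within a gene. XPO1 was higher in SF3B1 K700E, at 1.62 and 1.34 against 0.88 and 1.33 in WT. NUP98 (-1.29 and -1.12 against -1.05 and -1.11), TNPO2 (1.12 and 1.17 against 1.45 and 1.27) and TNPO3 (2.44 and 2.53 against 2.54 and 2.95) were lower. The margins between the nearest libraries of XPO1, NUP98 and TNPO3 were small, and the other 6 genes overlapped. TPR had -0.86 and -0.55 in SF3B1 K700E and -0.24 and -0.57 in WT. Among 4458 genes, 16.7% were higher and 13.3% lower in this way.

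The rest of the pore and transport machinery gave no call. Of 56 further genes for the scaffold, channel, importins, exportins, RAN cycle and mRNA export, 54 were tested (IPO4 and NXT1 had too few reads), and 0 passed in gene totals with edgeR in either direction. An unadjusted p under 0.05 was found for 4, of which 3 were higher (KPNA3, KPNA6 and SEH1L) and 1 lower (NUP210, a pore membrane protein), all named after their values were seen. Over all genes 3.67% were higher and 6.44% lower at that p. Both SF3B1 K700E libraries lay above both WT libraries in 18 of the 54 and below in 6, where over all genes 19.4% lay above and 20.1% below. Among the 12 tested importins 4 were above and 0 below, among 14 scaffold genes 5 and 3, among 13 channel, membrane and cytoplasmic genes 5 and 2, among 6 exportins 2 and 1, and among 9 genes of the RAN cycle and mRNA export 2 and 0. The median log2 change of the 54 was 0.15, against 0.00 over all genes. Acceptor use was tested for 225 junctions in 40 of these genes and donor use for 203 junctions in 38, and 0 passed in either direction with edgeR (at an unadjusted p under 0.05, 6 acceptor and 3 donor junctions were higher, where 2.46% and 1.55% of all junctions were, and 0 of either were lower). The smallest adjusted p in gene totals was that of KPNA3, an importin α, with 98.6 and 85.9 CPM in SF3B1 K700E and 37.9 and 46.6 CPM in WT (log2 change 1.13, SE 0.26, edgeR adjusted p 0.0778), named after its values were seen. DESeq2 called this 1 gene higher, and leaving out WT replicate 2 did so with edgeR.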

How the data were processed

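Chromatin-bound RNA of 4 K562 libraries was prepared in buffers with 25 µM α-amanitin, passed through 3 rounds of polyA removal and freed of ribosomal RNA, per the labels' protocols. Per the file headers of the run logs, the authors aligned read pairs with STAR 2.7.10a to GRCh38.p12 with GENCODE 27 and 22 junctions. The deposited junction files give counts of uniquely and multiply mapped reads per junction, unnormalized, and the longest overhang, another number the authors deposited. Unspliced reads, and so retained introns, were not analysed here.

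Uniquely mapped counts over canonical junctions were used, with GENCODE 29 for genes and transcripts. Reads over introns of several genes (3.98% of annotated-junction reads) stayed out of gene totals. Gene totals were filtered with filterByExpr, scaled by TMM and tested with edgeR 4.0.16 (quasi-likelihood) in R 4.3.3, and junction use with its diffSpliceDGE, over junctions with at least 10 reads in clusters of at least 2, with Benjamini-Hochberg adjustment over the whole table at 0.05. The SE of a log2 change follows from its F value. Each test was run on simulated counts. Limma 3.58.1 (voom) and DESeq2 1.42.0 were alternatives, beside read minimums, multiply mapped reads and left-out libraries. The reference acceptor of a donor is its most read annotated one. Intervals are 95% Wilson intervals, and a count of 0 allows 3 counts.

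The genes and lists were chosen with earlier results of these data known. All 10 genes are named, and of each the most read unannotated acceptor up to 100 nt upstream, annotated alternative and intron were examined, with any junction or further gene that passed. Other names are stated to have been chosen after their values were seen.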

Additional observations from a re-analysis of the deposited data

How the results depend on the processing

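The counts of called genes and junctions among the 8 tested genes stayed at 0 under every alternative run, leaving out each library included. In the list of further transport genes, which had 0 calls in gene totals, DESeq2 called 1 higher (KPNA3, adjusted p 0.0183). Without each library in turn 0 to 1 were called higher and 0 to 1 lower (edgeR). The higher one was KPNA3 without WT replicate 2 (adjusted p 0.0377), and the lower one was NUP155 without SF3B1 K700E replicate 1 (adjusted p 0.026). The cause was not tested.

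The unannotated share of the 10 genes together, with TPR and TNPO3, which were chosen for such reads, included, was 0.471 percentage points higher in SF3B1 K700E. It was 0.227 over junctions with at least 10 reads, where fewer junctions are counted, and 0.337 without the 17 nt sites, an alternative chosen after seeing the data. It was 0.410 to 0.531 without each library in turn. The other 8 genes together had 1.89% and 2.09% in SF3B1 K700E against 1.84% and 2.08% in WT. The upstream shares of TPR and TNPO3, 19.3 and 21.8 percentage points higher, were 15.4 to 23.3 and 20 to 23.7 without each library in turn. WT was at 0 in both libraries, so leaving out an SF3B1 K700E library only returns the share of the other. These sites also chose the genes, so the ranges are a description and add no support. The median 3′ over 5′ log2 ratio over the 10 genes was 0.07 higher in SF3B1 K700E, although the median of the 10 genes' own differences was -0.13. As the ratio can be compared only within a gene, the 0.07 follows the mid-ranked genes and is no measure of a shared shift. The difference of 0.07 was -0.03 with each gene cut into 2 parts in place of 3 and -0.02 to 0.16 without each library in turn.

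Some log2 changes of the tested genes and junctions changed sign, and none passed before or after. The gene total of TNPO2 was 0.0055 without the filter on low counts, 0.0080 with multiply mapped reads and -0.11 to 0.13 without each library in turn. Without each library in turn XPO1 was -0.25 to 0.28, NUP153 -0.0065 to 0.67, RANBP2 0.13 to 0.65 and NUP50 0.17 to 0.59. The untested totals of TPR and TNPO3 were -0.31 to 0.0049 and -0.09 to 0.09. In the same way the upstream annotated acceptor in intron 2 of NUP50 was -0.97 to 0.44, the main one there -0.17 to 0.21, and the annotated alternative donor at intron 11 of NUP153 -0.61 to 0.31.

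The replicate numbers are shared between the genotypes, but nothing says that they pair the samples. Deviations from the group means of same-numbered libraries correlated at -0.205 across 10827 genes. With the replicate block 0 of the 8 genes and 0 of their junctions were called. Depth limits the sites: most unannotated acceptors within 100 nt of an annotated one rest on under 10 reads.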
